A study of Mus musculus with 2 samples.

Results

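The 5 nuclear genes that encode the mitochondrial part of corticosteroid synthesis are the steroid hydroxylase genes Cyp11a1, Cyp11b1 and Cyp11b2, and Fdx1 and Fdxr, which encode the electron carriers serving them. They were taken by symbol, and all 5 were found among the 55536 annotated genes of the gene tables. Total RNA was sequenced from the adrenal gland of female B6CASTF1/J mice aged 25 days, a first-generation hybrid strain one of whose parents is CAST, and the labels name no treatment. The 2 libraries, replicate 1 and replicate 2, form 1 group, each made from 300 ng of RNA with spike-ins added. The tissue descriptions number the females differently while the library description and donor field are the same, so an SD here measures the spread between libraries, which may be technical. Replicate 1 held 19366343 expected counts and replicate 2 held 33728646, and the share on protein-coding genes of the nucleus, leaving out Lars2, was 36.3% and 66.1%. The marker lists of glomerulosa (8 of 8), fasciculata (5 of 5), X-zone (3 of 3) and chromaffin cells (6 of 6) were detected in both libraries at 1 TPM or more, and 0 of 5 kidney markers were. The glomerulosa list includes Cyp11b2 itself, and the fasciculata list includes Cyp11b1. The 7 liver markers summed to 200.2 TPM in replicate 1 and 3.83 TPM in replicate 2.

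Steroid hormones are made from cholesterol in steps that alternate between mitochondria and the endoplasmic reticulum. In the mitochondrion, ferredoxin reductase (Fdxr) takes electrons from NADPH, ferredoxin (Fdx1) carries them on its iron-sulfur cluster, and a membrane-bound cytochrome P450 uses them to hydroxylate the steroid. Cyp11a1 cleaves the cholesterol side chain and so opens the pathway, Cyp11b1 makes corticosterone in the zona fasciculata, and Cyp11b2, the aldosterone synthase, acts in the zona glomerulosa.

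Both Cyp11b genes lie side by side on chromosome 15 and resemble each other closely. The part of this likeness in how reads were divided between them was not tested. Several coding windows of 60 bases are fully alike, and the first of them is shown here. It lies in exon 1 of both genes (GRCm38, minus strand, chr15:74841528-74841587 in Cyp11b1 and chr15:74856147-74856206 in Cyp11b2) and has no differing base, so it is written once. An unlike window is shown beside it, from exon 3 (minus strand, chr15:74839246-74839305 and chr15:74853815-74853874), with its 24 differing bases in capitals. Among windows aligned without a gap inside 1 exon no more bases differed in any, and 3 windows of exon 3 and 1 of exon 5 had this number. Windows of exon 5 that span the unaligned bases differed at up to 26. Within the window of exon 1 no base tells the genes apart, and within that of exon 3 many do.
Cyp11b1 and Cyp11b2, exon 1: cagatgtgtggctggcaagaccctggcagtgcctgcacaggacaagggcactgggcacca
Cyp11b1, exon 3: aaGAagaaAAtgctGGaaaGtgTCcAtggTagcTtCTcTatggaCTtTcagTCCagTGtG
Cyp11b2, exon 3: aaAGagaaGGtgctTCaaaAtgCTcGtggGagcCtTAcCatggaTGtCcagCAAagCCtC

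The P450s bind heme through a cysteine near the end of the protein. The 30 bases that encode this signature are shown because they hold the catalytic site common to all 3 hydroxylases, with the cysteine codon in capitals. They lie in exon 8 of each leading transcript, at chr9:58026211-58026240 (plus strand) for Cyp11a1, at chr15:74836275-74836304 (minus strand) for Cyp11b1 and at chr15:74851461-74851490 (minus strand) for Cyp11b2. Cyp11b1 and Cyp11b2 differed at 0 of the 30 bases, and each differed from Cyp11a1 at 7. Ferredoxin binds its iron-sulfur cluster through cysteines, and 3 of their codons stand in capitals in the stretch of exon 3 shown (minus strand, chr9:51948672-51948701).
Cyp11a1 heme signature: tttggctggggtgttcggcagTGTctgggc
Cyp11b1 heme signature: tttggctttggggtgcgccagTGCctgggg
Cyp11b2 heme signature: tttggctttggggtgcgccagTGCctgggg
Fdx1 iron-sulfur cysteines: TGTgagggaacgttggctTGCtctactTGT

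Cyp11a1 was the most abundant of the 5 genes, followed by Cyp11b1, Fdx1, Fdxr and Cyp11b2, in this order in each library. In TPM, which counts reads per transcript length and scales them to a fixed sum, Cyp11a1 (chr9:58006411-58027023, plus strand) was at 1386 in replicate 1 and 2335 in replicate 2, or 1861 ± 671 (SD, n = 2). Cyp11b1 (chr15:74834125-74841643, minus strand) was at 943 and 1580 TPM, or 1261 ± 451. The ranges of these neighbours overlapped, although Cyp11a1 exceeded Cyp11b1 by 1.47 and 1.48 times within the libraries. Fdx1 (chr9:51943306-51963556, minus strand) was at 446.4 and 534.3 TPM, or 490.3 ± 62.2, and Fdxr (chr11:115268024-115277050, minus strand) at 281.1 and 463.7 TPM, or 372.4 ± 129. Their ranges also overlapped, and both lay below every value of Cyp11b1. Cyp11b2 (chr15:74851010-74856318, minus strand) had 26.2 and 53.5 TPM, or 39.9 ± 19.3, below every value of the others. All 5 genes had the higher TPM in replicate 2, where coding genes held more of all reads. In bulk tissue, fewer cells of a zone and less RNA per cell cannot be told apart.

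To remove that difference in scale, TPM was also rescaled so that the same protein-coding genes, again without Lars2, had the full sum in each library, a scale called coding TPM here. On it Cyp11a1 stood at 6703 and 6902, Cyp11b1 at 4559 and 4670, and Fdxr at 1359 and 1371, so each differed little between the libraries. Fdx1 stood at 2158 and 1579, higher in replicate 1, and Cyp11b2 at 127 and 158, higher in replicate 2. On this scale the ranges of all 5 genes were apart. Cyp11a1 ranked 6 and Cyp11b1 ranked 8 of 22014 coding genes in both libraries, Fdx1 ranked 25 and 35, Fdxr 55 and 46, and Cyp11b2 1532 and 1163. Together the 5 genes held 1.49% of coding TPM in replicate 1 and 1.47% in replicate 2.

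**Figure D1:**
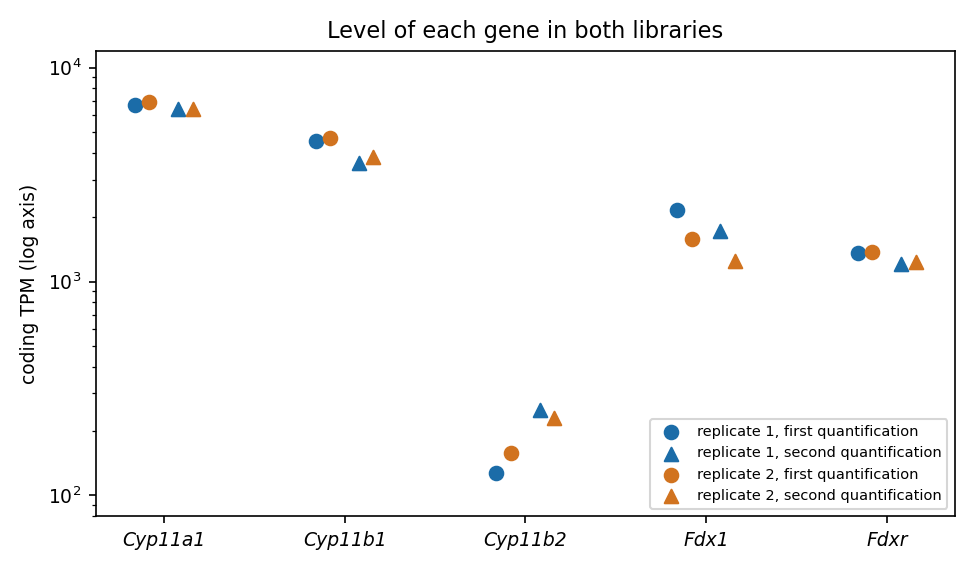
Coding TPM (log axis) of the 5 genes; each point is 1 library, circles from the first and triangles from the second quantification. Circles of the same gene nearly coincide for Cyp11a1, Cyp11b1 and Fdxr, Fdx1 is higher in replicate 1 (2158 against 1579), and both triangles of Cyp11b2 lie above both circles.

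Each library was quantified in 2 ways by the authors, called the first and the second quantification here. The tables gave different levels for Cyp11b2. Its expected count was 656.1 in replicate 1 and 2568 in replicate 2 in the first quantification, against 1569 and 4257 in the second. The second count was thus 2.39 times the first in replicate 1 and 1.66 times in replicate 2. Of the coding genes with a first count of at least 100, 0.77% of 9215 in replicate 1 and 0.874% of 11672 in replicate 2 had a second count at least 1.5 times the first. Of the 5 genes only Cyp11b2 did, in both libraries.

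The other 4 genes lay closer to the bulk of coding genes, whose median ratio of second to first count was 1.12 in replicate 1 and 1.10 in replicate 2. Cyp11a1 had ratios of 1.11 and 1.10, Fdxr 1.08 and 1.06, and Cyp11b1 1.02 and 1.01. Fdx1 had ratios of 0.905 and 0.794, both under the 5th percentile of coding genes (0.967 and 0.915). Cyp11b2 was thus counted higher in the second quantification, and Fdx1 lower.

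**Figure D2:**
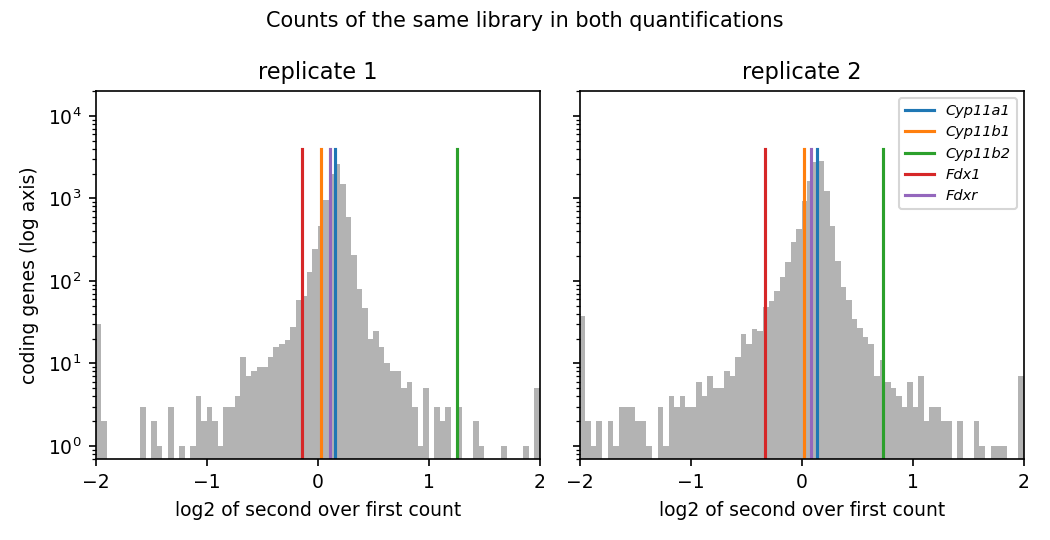
Histograms of coding genes (log axis) by the log2 of second over first count, 1 panel per library, with the 5 genes as vertical lines; values beyond the axis are in the end bins. Cyp11b2 lies far to the right in both panels (2.39 and 1.66 times) and Fdx1 to the left of the bulk.

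The additional Cyp11b2 counts in the second quantification, 913 in replicate 1 and 1689 in replicate 2, equalled 1.93% and 1.11% of the Cyp11b1 counts. Cyp11b1 itself had 47346 and 152332 counts in the first quantification and 48340 and 154258 in the second. The sum of both genes moved by 1.04 and 1.02 times. The authors' posterior SD of the count, per the file headers, was the same for Cyp11b1 and Cyp11b2, 11.3 reads in replicate 1 and 26.4 in replicate 2. It was 0 for Fdx1 and Fdxr. In TPM the second quantification put Cyp11b2 at 73.0 and 142.9.

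The ratio between both Cyp11b genes depended on the table. In TPM, Cyp11b1 exceeded Cyp11b2 by 35.9 and 29.5 times in the first quantification. In the second it exceeded it by 14.3 and 16.5 times, or 15.4 ± 1.58 (SD, n = 2). The ranges did not overlap, and the library with the higher ratio changed from replicate 1 to replicate 2. Cyp11b1 was far above Cyp11b2 in every library and table.

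The sequences were compared to show where reads can be divided between the pair. Of 1506 aligned coding bases 1312 were identical (87.12%), 194 differed and 3 bases were unaligned, and the longest identical run spanned 244 bases. Exon 1, which holds the identical window shown above, was 99.18% identical, and exon 6 was 96.41% identical. Exon 3, which holds the unlike window, was 78.5% identical, and exon 5 was the least alike at 66.45%. Of the 1479 windows of 31 bases in the Cyp11b2 coding sequence, 404 (27.3%) were also in Cyp11b1, as were 171 of 1410 windows of 100 bases (12.1%). The leading transcripts of Cyp11a1, Fdx1 and Fdxr shared 0 windows of 31 bases with any other annotated gene. The comparison used the reference, and the effect of CAST alleles on the division of reads was not tested.

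**Figure D3:**
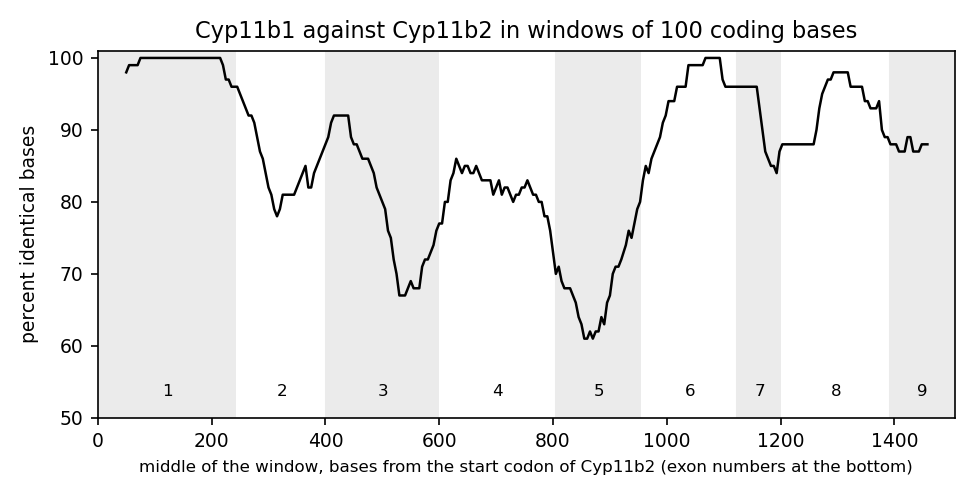
Percent of identical bases between Cyp11b1 and Cyp11b2 in sliding windows of 100 coding bases, against the window's middle in bases from the start codon of Cyp11b2; shaded and white bands are the numbered exons. Identity reaches 100% in exons 1 and 6 and is lowest around exons 3 and 5.

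The untranslated ends of the pair differ in length. The Cyp11b1 transcript is 3165 bases long with 1628 bases after its coding sequence, while the Cyp11b2 transcript is 1625 bases long with 29. In expected counts, which are not scaled by length, Cyp11b1 therefore exceeded Cyp11b2 by 72.2 and 59.3 times. The end of Cyp11b1 overlaps Gml2, on the opposite strand, by 747 bases, and Gml2 had 0 counts in both libraries and both quantifications. Gml, the next gene on that side, also had 0 counts, and Cyp11b2 begins 9367 bases away on the other side. Per the labels the kit was directional. The strand setting of the quantification is not given in the sources used here.

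Between the libraries, the P450 genes of highest level and Fdxr were the most even. The log2 ratio of replicate 2 over replicate 1, from counts scaled by TMM, was 0.01 for Cyp11a1 (95% counting interval -0.01 to 0.02), 0.00 for Cyp11b1 (-0.01 to 0.02) and 0.03 for Fdxr (-0.01 to 0.06). The exact binomial test gave them adjusted p-values of 0.372, 0.853 and 0.299. These intervals cover counting error on the TMM scale only. On spike-in counts the ratios were 0.14, 0.13 and 0.16, and on total counts 0.90, 0.89 and 0.91, all of them called. With either scaling, and with the second quantification, all 5 genes were called, against 46.4% of all genes tested on spike-in counts, 98.4% on total counts and 35.5% in the second quantification. On total counts 1 of the 5 genes, Cyp11b2, and 36.1% of all genes tested were 2-fold or more apart.

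Fdx1 had 6242 counts in replicate 1 and 14186 in replicate 2, and it was lower in replicate 2 once scaled. Its log2 ratio was -0.50 (-0.54 to -0.46), that is 1.41-fold higher in replicate 1 (adjusted p = 1.86e-107, exact binomial test). The second quantification gave -0.64. Scaling by total counts, which shifts every log2 ratio up by 0.89, turned it to 0.39, and scaling by spike-in counts, a shift of 0.13, left it negative. Of the 11542 genes tested, 8.58% had a log2 ratio at least as far from 0. Each of its 3 transcripts was lower in replicate 2.

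Cyp11b2 had a log2 ratio of 0.28 (0.16 to 0.41; adjusted p = 3.97e-05, exact binomial test), that is 1.22-fold higher in replicate 2. The second quantification turned this to -0.20. Which library held more Cyp11b2 therefore depended on the quantification. The test called 2 of the 5 genes, 1 in each direction, while it called 33.5% of all genes tested. At 2-fold or more apart were 0 of the 5 genes and 1.32% of all genes tested. Markers of cell types also differed between the libraries on the TMM scale. Of the 5 fasciculata markers 3 were called lower in replicate 2 (Mrap at -0.91, Akr1b7 at -0.80 and Abcb1b at -0.08) and 0 higher. The list summed to 9905 coding TPM in replicate 1 and 9079 in replicate 2. Cyp11b1, which is on this list, supplied 4559 and 4670 of these sums. Of the 8 glomerulosa markers 3 were called lower (Agtr1a at -0.87, Hsd3b6 at -0.50 and Dab2 at -0.36) and 1 higher, Cyp11b2 itself, and the list summed to 1083 and 907 coding TPM. On total counts, with the shift given above, the lower markers of both zones other than Mrap turned positive. All 3 X-zone markers were called higher in replicate 2, summing to 7383 and 8232 coding TPM, and of 6 chromaffin markers 4 were called higher and 2 lower. All 7 liver markers were called lower, summing to 968 and 11.3 coding TPM. The part of these cell types in the values of Fdx1 and Cyp11b2 was not tested.

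**Figure D4:**
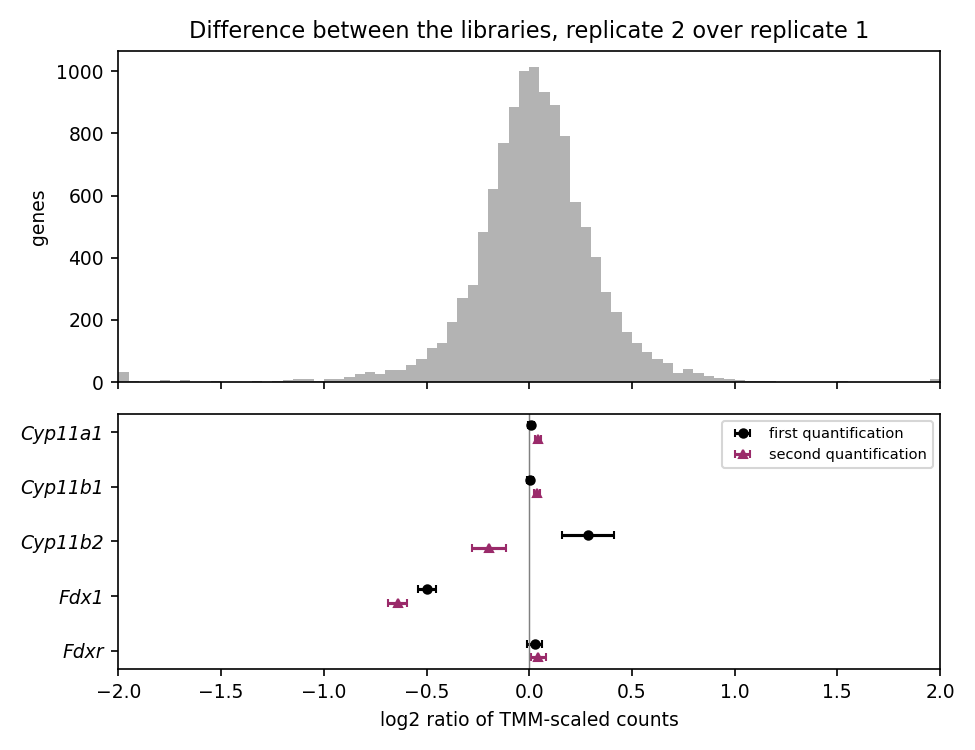
Log2 ratio of replicate 2 over replicate 1 from TMM-scaled counts: above, a histogram of the 11542 genes tested (values beyond the axis are in the end bins); below, the 5 genes with 95% counting intervals in both quantifications. Cyp11a1, Cyp11b1 and Fdxr lie near 0, Fdx1 lies at -0.50 and -0.64 (0.39 on total counts), and Cyp11b2 lies on opposite sides of 0.

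The ratios between the genes followed from these levels, with all annotated transcripts of a gene counted. Fdx1 exceeded Fdxr by 1.59 times in replicate 1 and 1.15 times in replicate 2 in TPM, and by 1.43 and 1.01 times in the second quantification. In gene TPM the carrier and its reductase were thus nearly level in replicate 2. The Fdxr value includes transcripts annotated without a coding sequence. In the first quantification the coding transcript Fdxr-201 alone had 236.5 and 410.9 TPM, against 412.6 and 513.6 TPM for Fdx1-201. The summed TPM of the 3 P450 genes was 5.28 and 7.43 times that of Fdx1. It was 8.38 and 8.56 times that of Fdxr, or 8.47 ± 0.128 (SD, n = 2), and 8.51 times in both libraries in the second quantification. The ratio to Fdxr was the more even of these across libraries, and that to Fdx1 moved with Fdx1.

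The 5 genes have 13 annotated transcripts, 4 for Cyp11a1, 3 for Fdx1, 4 for Fdxr and 1 for each Cyp11b gene, so the level of a Cyp11b gene is that of a single transcript. Cyp11a1-201, the full-length coding transcript of 2120 bases, held 96.4% and 97.9% of the gene's TPM. The second quantification gave it 86.0% in replicate 1 and 98.4% in replicate 2. The difference lay in Cyp11a1-203, a shorter coding transcript of 848 bases, which received 1935 counts in replicate 1 and 0 in replicate 2 there, against 169 and 269 in the first quantification. Cyp11a1-204, a retained-intron transcript, held 2.21% and 1.42% of TPM, from 1678 and 3476 counts. Cyp11a1 was carried mostly by its leading transcript in every library and table.

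Fdx1-201, of 875 bases, held 92.4% and 96.1% of Fdx1 TPM. Fdx1-202, a coding transcript of 2759 bases, held 4.57% and 3.66% of TPM but 14.2% and 11.5% of the gene's counts, since a longer transcript gives more reads per molecule. Fdx1-203, annotated for nonsense-mediated decay, held 2.99% and 0.22%, from 109 and 18.3 counts. The log2 ratios between the libraries were -0.43, -0.80 and -4.15 in this order. Fdx1-201 held 84.0% and 88.3% of the gene's counts, so its direction and that of the gene are not separate observations.

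Fdxr-201, the coding transcript of 1948 bases, held 84.1% and 88.6% of Fdxr TPM, and 93.9% and 95.8% of its counts. Fdxr-203 and Fdxr-202, which are annotated as processed transcripts without a coding sequence, held 8.55% and 6.46%, and 6.23% and 4.00%. Fdxr-204, of the same kind, held 1.10% and 0.93%.

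The 8 transcripts that do not lead their gene were all lower in replicate 2, in the first quantification (median log2 ratio -0.73) and in the second. Coding genes had 12316 such transcripts that averaged 50 counts or more, and of these 48.2% were lower in replicate 2 and the median was 0.03. This comparison was chosen after the values were seen, and transcripts of the same gene share its reads.

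**Figure D5:**
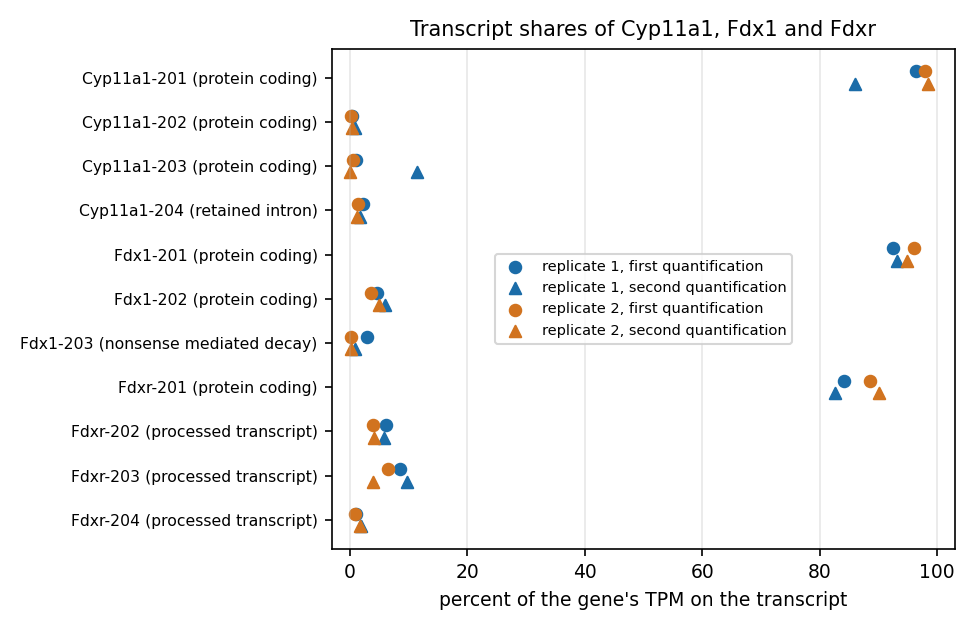
Percent of each gene's TPM on its annotated transcripts; each point is 1 library in the first (circle) or second (triangle) quantification. The leading transcripts lie above 80%, and Cyp11a1-203 stands out with 11.5% in the second quantification of replicate 1.

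The effective length by which reads were divided also differed between the tables. The first quantification subtracted 99 bases from each transcript's length in both libraries. The second subtracted 292 bases in replicate 1 and 334.1 in replicate 2. All 5 genes had a higher TPM in the second quantification. Fdx1 reached 505 and 770 TPM. On the coding TPM scale it was lower in the second quantification, at 1730 and 1246 against 2158 and 1579 in the first. Cyp11a1 (6444 and 6402 against 6703 and 6902), Cyp11b1 (3572 and 3823 against 4559 and 4670) and Fdxr (1207 and 1229 against 1359 and 1371) were lower too. Only Cyp11b2 was higher on that scale, at 250 and 231 against 127 and 158. Cyp11a1 reached 1881 and 3954 TPM, Cyp11b1 1043 and 2361 TPM, and Fdxr 352 and 759 TPM.

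Promoters of Fdx1 and Fdxr are shown because the carriers serve the same electron chain. On the TMM scale of the first quantification Fdx1 alone of them was called different between the libraries. Fdxr was called too on spike-in counts, on total counts and in the second quantification. The part of these sequences in such differences was not tested. Of the 5 genes 3 matched an entry of the RefSeq promoter table (GRCm38.p6), namely Cyp11a1, Fdx1 and Fdxr. The stretches shown lie upstream of every annotated exon, 250 bases for Fdx1 (chr9:51963603-51963852) and 169 for Fdxr (chr11:115277051-115277219), both on the minus strand. Capitals mark matches to CAAGG and GGGCGG on either strand.
Fdx1 promoter: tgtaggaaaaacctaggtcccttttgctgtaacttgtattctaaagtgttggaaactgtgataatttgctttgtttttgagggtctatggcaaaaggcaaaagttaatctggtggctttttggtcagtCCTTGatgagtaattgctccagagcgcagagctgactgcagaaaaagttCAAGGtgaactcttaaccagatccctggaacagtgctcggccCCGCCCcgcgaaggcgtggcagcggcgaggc
Fdxr promoter: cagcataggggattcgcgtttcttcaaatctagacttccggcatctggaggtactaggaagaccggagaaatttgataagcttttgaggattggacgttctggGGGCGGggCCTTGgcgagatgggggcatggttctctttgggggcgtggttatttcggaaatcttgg

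Steroidogenic factor 1 (Nr5a1) is the nuclear receptor that drives many steroidogenic genes. Its core motif AAGGTCA had 0 matches on either strand in the 250 bases before the RefSeq start of Fdx1, Fdxr and both entries of Cyp11a1, and 4.08% of 32851 promoters held it. CAAGG, which shares the bases AAGG with that motif, matched 2 times in Fdx1, 1 time in Fdxr and 0 times in Cyp11a1, against 46.02% of promoters with a match. The Sp1 box GGGCGG matched 1 time in Fdx1 and 3 times in Fdxr (1 of them in the stretch shown), against 32.74%. Neither Cyp11a1 entry covers bases just before the start of Cyp11a1-201. The 250 bases of 1 entry lie upstream of every annotated exon of the gene, at -16897 to -16648 from that start. Those of the other lie wholly within annotated exons of the gene, at 31 to 280 from that start. The cAMP response element TGACGTCA (1.55% of promoters) and TATAAA (12.37%) had 0 matches in these genes. A match describes letters only.

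Apart from Cyp11b1, which neighbours Cyp11b2, the annotated neighbours had a lower TPM than the gene they flank or overlap. The lincRNA Gm17322 overlaps Cyp11a1 on the same strand by 1041 bases, upstream of the start of Cyp11a1-201, and had 0.95 and 1.59 TPM. Sema7a and Ccdc33, which flank Cyp11a1, had at most 2.84 TPM. Around Fdx1, Gm6980 and Gm6981 had at most 0.21 TPM. Grin2c, which lies 781 bases from Fdxr, had 0.53 and 1.14 TPM, and Fads6 on its other side 15.9 and 30.9 TPM. 2010109I03Rik, beyond Cyp11b2, had 0.88 and 0.95 TPM.

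By distance in log2(TPM + 1) over the 2 libraries, the coding genes nearest in level to Cyp11a1 were Adh1, an alcohol dehydrogenase (distance 0.15), and Cyp21a1 (0.15). Those nearest to Cyp11b1 were Sparc (0.48) and Cyp21a1 (0.77), so the nearest gene was farther off than for the other 4. Cyp11b2 was nearest to Srebf1, a regulator of lipid synthesis, and Hist1h4b (0.02 each). Fdx1 was nearest to Fabp4 (0.19) and Fads2 (0.23), and Fdxr to Rps28 (0.06) and Abhd2 (0.09).

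Of 4 further mitochondrial P450 and ferredoxin genes, 2 were detected at 1 TPM or more in both libraries. Cyp27a1, a sterol hydroxylase, had 3.39 and 5.09 TPM, and Fdx1l, the ferredoxin of iron-sulfur cluster synthesis, had 6.81 and 12.02 TPM. Fdx1 thus exceeded Fdx1l many times in each library. The vitamin D hydroxylase genes Cyp27b1 and Cyp24a1 had 0 and 8 counts, and 0 and 0 counts. The test called 0 of the 2 genes that reached its minimum count (adjusted p 0.177 and 0.812, exact binomial test).

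All 14 genes of iron-sulfur cluster assembly, which supplies the cluster of ferredoxin, were detected in both libraries. Their medians were 18.5 and 27.3 TPM, below Fdx1 and Fdxr. The scaffold gene Iscu had 148.8 and 295.8 TPM and was higher in replicate 2 (log2 ratio 0.25). The chaperone gene Hspa9 (-0.27), the acyl carrier gene Ndufab1 (-0.42) and Isca1 (-0.33) were lower there. These were 4 of 13 genes tested, near the 33.5% called among all genes tested, and the median log2 ratio was -0.08 against 0.03 over all genes tested.

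Of 11 further steroid pathway genes, 10 were detected and tested, and the test called 6 higher and 2 lower in replicate 2. Of all genes tested 33.5% were called in either direction, and the median log2 ratio was 0.18 against 0.03. With more counts the test calls smaller ratios, and Star, for 1, had 107163 and 299312 counts. The part of count depth in the share called was not tested. Star, which delivers cholesterol to Cyp11a1, had a log2 ratio of -0.20, opposite to Hsd3b1 (0.20) and Cyp21a1 (0.22), the enzymes between Cyp11a1 and the Cyp11b step. Hsd3b6, a glomerulosa isoform, was lower like Fdx1 (-0.50), whereas Nr5a1 (0.20), Nr4a1 (0.40) and Nr0b1 (0.80) were higher. Por, the reductase that serves the P450s of the endoplasmic reticulum, was at 54.3 and 90.8 TPM with a ratio of -0.05, below Fdxr in both libraries. All directions in these lists are on the TMM scale, and on total counts every negative ratio named in them turned positive. Cyp17a1, which mouse adrenals express little after birth, had 0.39 TPM in both libraries.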

How the data were processed

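The members and gene lists were chosen with earlier results of these data known. Per the notes deposited beside the files, reads were quantified against mm10 with GENCODE M21; which programs did so is not given in the sources used here. Deposited by the authors were expected counts (estimated reads, not always whole), TPM and FPKM, each also as a posterior mean, and the percent of a gene's TPM per transcript, per the file headers. The second quantification deposited estimated counts and TPM per transcript, summed here per gene. FPKM served only as an alternative. The authors' posterior SDs and credibility bounds are other values of the same tables, copied as deposited.

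Identifiers were paired with symbols through the second transcript table and with GENCODE M21 positions. Rounded counts were scaled by TMM (edgeR 4.0.16, R 4.3.3) over all annotated genes. Log2 ratios used a prior of 1 count. Genes averaging 100 counts or more were tested by an exact two-sided conditional binomial test with Benjamini-Hochberg adjustment at 0.05. With 1 group no test between conditions exists, and 2 values against 2 allow an exact permutation p of 0.333 at the lowest. The test and the Clopper-Pearson 95% intervals compare these libraries and cover counting error only, since 1 group leaves no spread to estimate. Reads carry no molecular identifiers and can repeat a molecule, which neither the test nor the intervals take into account. Named genes were the 5 members, the listed pathway genes, the 2 coding genes nearest each member in level, and overlapping or adjacent genes. Lists were described by counts and medians. The coding sequences of Cyp11b1 and Cyp11b2 were aligned, windows were matched to all GENCODE M21 transcripts, and promoters came from RefSeq. Alternatives were other scalings, units, count minimums, prior counts and the second quantification. The log2 ratio, the binomial test and its intervals were tried on simulated counts that held counting error only, and the other steps were not. Python 3.11.15, numpy 2.4.6, scipy 1.17.1, pandas 2.3.3, biopython 1.88 and matplotlib 3.10.9 were used.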

Additional observations from a re-analysis of the deposited data

How the results depend on the processing

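Of 116 alternative values for 22 results, 82 were classed as the same, 23 as moved, 2 as reversed and 9 as stronger. The first class left room for movement: it held Cyp11b1 at 1702 TPM in the second quantification, against 1261. Some values could not differ, since coding TPM and FPKM rescale each library and leave ratios between the genes unchanged. The log2 ratio of Cyp11b2 turned to -0.20 in the second quantification, and that of Fdx1 turned to 0.39 on total counts, a scaling under which the size ratio of the libraries is 1.74 and not 3.21. Under total counts, spike-in counts and the second quantification 5 genes were called, as were 98.4%, 46.4% and 35.5% of all genes tested, and 1 gene was 2-fold apart on total counts (36.1% of all). Median-of-ratios scaling and other count minimums changed no call. A prior of 0.5 enters only the log2 ratio and not the test, so it could not change a call. Levels differ by scale: coding TPM gave 6803 for Cyp11a1, 4615 for Cyp11b1, 142.6 for Cyp11b2, 1869 for Fdx1 and 1365 for Fdxr, and the second quantification gave 2918 for Cyp11a1, 107.9 for Cyp11b2, 637.3 for Fdx1 and 555.7 for Fdxr in TPM. The second quantification also gave 15.4 for Cyp11b1 over Cyp11b2, 0.576 for Cyp11b1 over Cyp11a1 and 92.2% for the share of Cyp11a1-201. Without length scaling, counts gave 65.7 for Cyp11b1 over Cyp11b2, 1.02 for Cyp11b1 over Cyp11a1, 0.694 for Fdx1 over Fdxr and 18.3 for the P450s over Fdx1. Shares of counts gave 86.2% for Fdx1-201 and 94.8% for Fdxr-201. At 5 TPM, 1 of the other mitochondrial P450 and ferredoxin genes was detected. A ratio between the libraries needs both, so neither could be left out of it. No paired analysis was possible because there is 1 group. Cyp11b2 had the fewest counts of the 5 genes and the widest interval.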
